A study of Mus musculus with 24 samples.

Results

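Regulatory T cells (Treg) from wild-type mice were compared with wild-type naive CD4 T cells that had been stimulated through the T cell receptor (TCR), across all genes, to separate Treg identity from genes that both populations have switched on. The comparison took the 8 arrays that the sample titles place in these 2 groups, 4 of Treg and 4 of stimulated cells, out of 24 arrays in 6 groups. Total RNA of each sample was hybridised to a 1-colour Agilent mouse gene expression array. Treg had been sorted as CD4+CD62+CD25+ cells and, per their labels, were unstimulated. The 4 Treg samples came from female C57BL/6 mice, 3 aged 6 weeks and 1 aged 7 weeks. Stimulated cells had been sorted as CD4+CD62+CD25- naive cells and then kept on plate-coated anti-CD3 and anti-CD28 for 13 h. The 4 stimulated samples came from female C57BL/6 mice aged 6 or 7 weeks. Wild-type naive cells of the same gate, unstimulated, gave 4 further arrays that served as a common baseline, from female C57BL/6 mice, 3 aged 6 weeks and 1 aged 7 weeks. The other 12 arrays held the same 3 populations from mice with a T cell-specific conditional knockout (CKO) of Trim28, and 8 of them, from female C57BL/6 mice aged 6 or 7 weeks, were used to repeat the comparison in that genotype. The labels name neither the Cre line nor the alleles of the wild-type controls, and they do not say whether replicates were separate animals, so the p-values measure only the spread between these samples, which may be technical.

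Treg are CD4 T cells that restrain immune responses. Their programme is set by the transcription factor Foxp3, and they carry the high-affinity interleukin-2 (IL-2) receptor, whose alpha chain CD25 is encoded by Il2ra, without making IL-2 themselves. Conventional naive T cells switch on CD25, receptors of the TNF family, IL-2 and a programme of growth within hours of meeting antigen, so part of what marks a Treg against a resting naive cell also marks an activated one.

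Values are log2 signals minus the 75th percentile of the same array, called the normalised log2 signal, so a gene at 0 is as bright as that percentile. Differences are Treg minus stimulated. A gene was called where the Benjamini-Hochberg adjusted p from limma, fitted on all 24 arrays, was under 0.05. Arrays of one group correlated at 0.969 to 0.984 (Pearson r across genes) among Treg and at 0.978 to 0.990 among stimulated samples, and Treg with stimulated arrays at 0.847 to 0.898. Treg arrays were on the whole dimmer, with a 75th percentile signal of 53.9 to 200.2 units, against 153.9 to 299.8 units on stimulated arrays. Of their probes, 48.3% to 59.0% were well above background on Treg arrays and 51.7% to 57.2% on stimulated arrays. Treg were not cultured, so cell type, stimulation and the culture itself cannot be told apart in this comparison. CD25 was part of the sort of both populations before any stimulation, which bears on Il2ra. In bulk RNA, fewer cells of a type and less RNA per cell cannot be told apart.

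The labelled populations were checked first. Foxp3 was high on every Treg array and low on every stimulated array, and Cd4, the coreceptor used in the sort, was well above background on all 8 arrays. Cd4 read -0.76, -0.3, -0.33 and -0.34 in the 4 Treg samples, against -1.19, -0.84, -0.82 and -0.81 in the 4 stimulated samples (difference 0.48 ± 0.15, standard error (SE), adjusted p = 0.00549). The groups did not overlap for this probe, but a second Cd4 probe gave -0.38 and the mean of both probes, at 0.05, was not called. Cd3e, a chain of the TCR complex, differed by -0.6 (adjusted p = 0.0307) with overlapping groups, and that sign turned with scaling on the brightest shared probes or with the mean of a gene's probes.

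Treg and stimulated cells differed at most measured genes. Of 16489 genes tested, 11970 (72.6%) were called, 5898 higher in Treg (35.8%) and 6072 lower (36.8%). Of the called genes, 4419 were at least 2-fold higher and 4104 at least 2-fold lower in Treg, while 898 were at least 8-fold higher and 344 at least 8-fold lower. For 64.8% of all genes tested the 4 Treg and the 4 stimulated values did not overlap. The median difference over all genes was 0.05, and it moved to 0.67 with scaling on the brightest shared probes and to 0.38 with normexp background correction. The share of called genes that were higher in Treg, 49.3%, moved with it to 69.0% and 58.3%, so small differences cannot be given a direction here. The plot of Treg against stimulated means shows the called genes as broad bands on both sides of the diagonal. Because most genes were called, a count of called members of any gene list is read below against these shares.

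**Figure D1:**
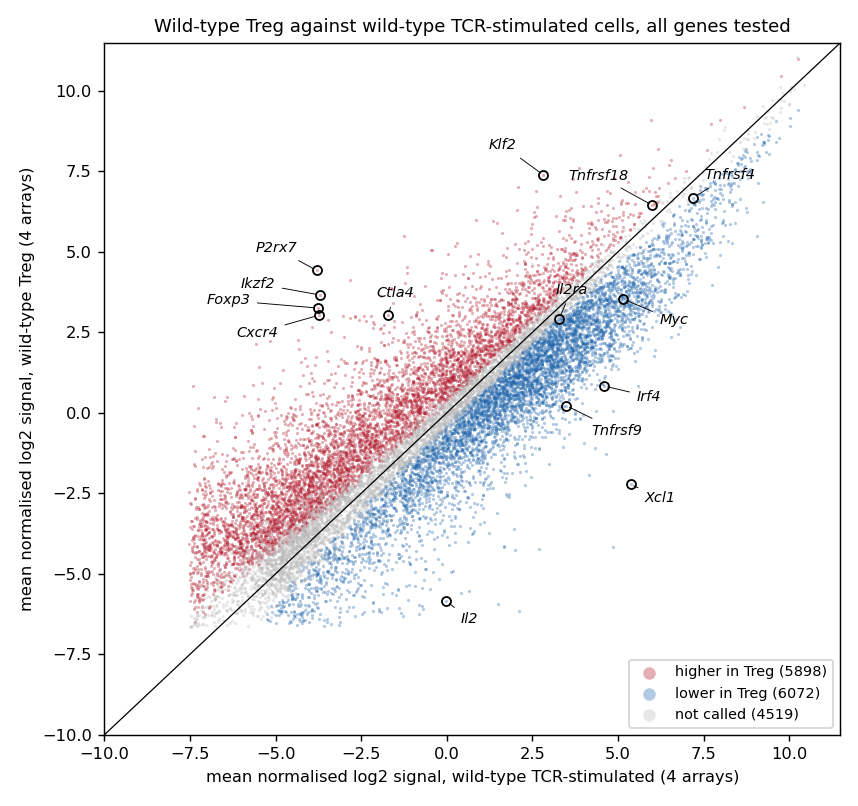
Mean normalised log2 signal of each of the 16489 genes tested in wild-type Treg (vertical axis, 4 arrays) against wild-type TCR-stimulated cells (horizontal axis, 4 arrays), with called genes in red (5898 higher in Treg) and blue (6072 lower) and uncalled genes in grey. Foxp3, Ikzf2 and Ctla4 lie far above the diagonal, Il2, Xcl1, Irf4 and Tnfrsf9 far below it, and Il2ra, Tnfrsf4 and Tnfrsf18 close to it.

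Among called genes above background in both groups, the 10 largest rises in Treg were in P2rx7, Ikzf2, Foxp3, Cxcr4, S100a4, Wls, Osgin1, Areg, Armc3 and Flicr. P2rx7, which encodes an ion channel opened by extracellular ATP, had values of 4.42, 4.54, 4.47 and 4.28 in Treg, against -3.27, -3.32, -4.49 and -4.14 in stimulated cells, a 301-fold difference (8.23 ± 0.22, adjusted p = 3.68e-16). Flicr, a long noncoding RNA gene named for Foxp3, was 57.2-fold higher in Treg and Areg, the EGF receptor ligand amphiregulin, 60-fold. The other end of the scale held Xcl1, Crtam, Bcat1, Angptl4, Syngr1, Ccl4, Pou2af1, Hivep3, Adarb1 and Tg. Xcl1, the chemokine lymphotactin, had -1.76, -2.06, -3.16 and -1.88 in Treg, against 5.14, 4.93, 5.83 and 5.58 in stimulated cells, and fell by 7.58 ± 0.47 on the log2 scale (adjusted p = 9.72e-12). Crtam, an adhesion receptor of activated T cells, was 68-fold lower in Treg, and Bcat1, which degrades branched-chain amino acids, 61.2-fold. Genes were taken into this paragraph only if their Treg and stimulated arrays did not overlap, so that separation is no result. For P2rx7, Ikzf2, Foxp3 and Cxcr4 the stimulated means, -3.80 to -3.70, lay below a signal floor of -2.69 tried as an alternative. The size of their folds thus depends on dim signals.

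Some genes were seen in only 1 of the 2 populations, in which case the difference has a lower bound only, taken against the dimmest signal still well above background. There were 383 genes above background on at least 3 Treg arrays and on no stimulated array, and 321 the other way round. All 383 were called higher with a bound above 1-fold, but only 179 of the 321 were called lower with such a bound. The dimmest signal still well above background was -5.07 to -3.30 on Treg arrays and -5.74 to -4.65 on stimulated arrays. A gene could thus go undetected in Treg at a higher normalised signal. Entpd1, the ectoenzyme CD39 that breaks down extracellular ATP and is a known Treg surface molecule, was at least 66.4-fold higher in Treg (means 0.83 in Treg and -7.42 in stimulated cells, adjusted p = 4.4e-13). The bounds for Neb, Wfdc2, Vcam1 and Capn3 were 68.5-fold, 53.9-fold, 52.6-fold and 48.2-fold higher. The other Capn3 probe gave a Treg minus stimulated difference of only 0.997 (log2), so that bound rests on 1 probe. In stimulated cells alone, Spin4, Ccl1, Fosl1, Hacd1 and Il2 were detected, at least 88.7-fold, 57.3-fold, 32.2-fold, 27.4-fold and 20.3-fold lower in Treg. Ccl1 encodes a T cell chemokine and Fosl1 the AP-1 subunit FRA-1. A further 245 genes were above background on no array of either group, and 87 of these were still called higher in Treg and 1 lower. Such genes carry no measured fold. Being seen in 1 of the 2 populations says nothing of unstimulated cells, where Entpd1, Neb, Wfdc2, Vcam1 and Capn3 were above background on all 4 arrays.

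Markers of other cell types moved with this comparison and are given before the gene groups they may touch. Of 19 myeloid and dendritic markers tested, 15 were called higher in Treg and 0 lower, and their summed linear signal, in units of the 75th percentile, was 28.7 to 123.5 on Treg arrays, 16.1 to 33.0 on stimulated arrays and 62.6 to 208.4 on unstimulated arrays. Of 16 B cell markers 10 were higher and 1, Pou2af1, lower. Their sum was 8.53 to 25.1 on Treg arrays, 27.0 to 38.6 on stimulated arrays and 18 to 58.0 on unstimulated arrays, and Pou2af1, with a mean of 0.07 in Treg and 4.85 in stimulated cells, gave most of the stimulated sum. For CD8, NK and unconventional T cell markers (10 higher and 3 lower of 16) the sums were 6.29 to 9.46 on Treg, 4.21 to 6.26 on stimulated and 17.6 to 26.4 on unstimulated arrays. Of 10 erythroid and platelet markers on the array, 6 were tested (6 higher) and summed to 1.91 to 40.7 on Treg, 0.113 to 0.411 on stimulated and 1.20 to 54.1 on unstimulated arrays. Of 14 stromal and epithelial ones, 6 were tested (5 higher, 1 lower) and summed to 6.38 to 11.3 on Treg, 0.737 to 1.26 on stimulated and 4.44 to 8.19 on unstimulated arrays. Above background on at least 3 arrays were 4 of these erythroid and platelet markers in Treg and 1 in stimulated cells, and 5 and 3 of the stromal and epithelial ones. As a marker was tested only if detected in some group, the counts of calls depend on that filter. Many of these markers were dim. With a floor set under the signal, the markers called higher in Treg were 9 myeloid and dendritic, 4 B cell, 3 CD8, NK and unconventional, 3 erythroid and platelet, and 4 stromal and epithelial ones. The genes Ebf1, Ncr1 and Cdh1, picked out after their values were seen, were called although above background on no array of either group. The lysozyme gene Lyz2 read 4.02, 4.11, 3.25 and 2.7 in Treg, against -0.69, 1.69, -0.012 and -1.83 in stimulated cells (adjusted p = 0.000134). Against unstimulated cells, 0 myeloid markers were higher and 1 lower in Treg, and 15 were lower in stimulated cells. For B cell markers, 0 were higher and 9 lower in Treg, and 15 were lower and 1 higher in stimulated cells. In Treg, 1 of the 16 B cell, 0 of the myeloid and 3 of the 16 CD8, NK and unconventional markers were above background on no array, against 3, 3 and 8 in stimulated cells. The part of other cell types in the results below was not tested.

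Foxp3, Il2ra and Il2 stand for the 3 patterns of interest, namely a gene high in Treg alone, a gene high in both populations and a gene high in stimulated cells alone. Their promoter windows are shown because all of them are textbook targets of the calcium-dependent factor NFAT, which TCR signals activate. Each window covers 250 bases before to 50 bases after the transcription start that lies farthest 5′ in RefSeq on mouse build GRCm38.p6, written 5′ to 3′ along the gene: chrX:7579426-7579725 (plus strand) for Foxp3, chr2:11642542-11642841 (plus strand) for Il2ra and chr3:37125905-37126204 (minus strand) for Il2. Capitals mark GGAAA, the core that NFAT proteins prefer, read on either strand.
Foxp3: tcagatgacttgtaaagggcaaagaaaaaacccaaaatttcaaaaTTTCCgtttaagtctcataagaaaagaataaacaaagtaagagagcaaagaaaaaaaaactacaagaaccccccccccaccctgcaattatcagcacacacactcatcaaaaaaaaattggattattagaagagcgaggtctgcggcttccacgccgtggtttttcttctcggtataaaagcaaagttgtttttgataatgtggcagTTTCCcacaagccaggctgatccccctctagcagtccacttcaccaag
Il2ra: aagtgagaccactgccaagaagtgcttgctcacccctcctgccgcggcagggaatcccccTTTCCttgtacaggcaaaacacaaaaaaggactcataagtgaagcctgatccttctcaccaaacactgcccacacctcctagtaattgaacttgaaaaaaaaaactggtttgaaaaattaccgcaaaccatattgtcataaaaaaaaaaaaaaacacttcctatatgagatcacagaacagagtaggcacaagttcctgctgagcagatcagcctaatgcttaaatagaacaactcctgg
Il2: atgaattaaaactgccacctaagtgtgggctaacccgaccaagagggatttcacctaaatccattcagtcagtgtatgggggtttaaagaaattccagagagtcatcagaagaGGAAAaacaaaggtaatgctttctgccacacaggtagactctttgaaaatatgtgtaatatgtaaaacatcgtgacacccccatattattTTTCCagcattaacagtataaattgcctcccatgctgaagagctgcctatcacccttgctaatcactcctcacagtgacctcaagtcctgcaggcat
GGAAA occurred in 2 places in the Foxp3 window, in 1 in the Il2ra window and in 2 in the Il2 window. The same letters were in 61.3% of all 27025 promoter windows, so the 3 matches are a description only. Neither TGANTCA, an AP-1 element found in 7.92% of all windows, nor TTCNNNGAA, a STAT element found in 8.42%, was present in any of the 3 windows on either strand.

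The master regulator of Treg separated the populations. Foxp3 had normalised log2 signals of 3.52, 3.09, 3.23 and 3.19 in the 4 Treg samples, against -4.14, -3.87, -3.61 and -3.41 in the 4 stimulated samples and -2.46, -2.57, -3.16 and -2.94 in the 4 unstimulated samples. The Treg values were all high and close together, and stimulated values were lower even than unstimulated ones. The stimulated and unstimulated means, -3.76 and -2.78, were above background but lay below a signal floor of -2.69 that was tried as an alternative. Foxp3 was 129-fold higher in Treg than in stimulated cells (7.01 ± 0.2, adjusted p = 4.82e-16) and was lower in stimulated than in unstimulated cells (stimulated minus unstimulated -0.98, adjusted p = 0.00023). On the 2 slides that held both groups the difference was 7.38 and 6.64. Ikzf2, which encodes Helios, an Ikaros family factor typical of thymus-derived Treg, had 3.48, 3.55, 3.85 and 3.77 in Treg, against -3.9, -3.0, -3.78 and -4.12 in stimulated cells (165-fold higher, adjusted p = 1.28e-15), and its 5 probes gave 5.03 to 7.85. Ikzf4, encoding the related factor Eos, rose by 2.75 ± 0.25 (adjusted p = 3.57e-09).

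Several surface and secreted molecules of the Treg programme were higher in Treg than in stimulated cells. Ctla4, the inhibitory receptor that competes with CD28 for its ligands, had 2.83, 3.03, 3.06 and 3.21 in Treg, against -1.42, -1.23, -2.37 and -1.88 in stimulated and -1.5, -1.87, -2.75 and -1.14 in unstimulated cells. Treg were 27-fold above stimulated cells (4.76 ± 0.28, adjusted p = 5.8e-12), and stimulated minus unstimulated was 0.09 (adjusted p = 0.81), so 13 h of stimulation gave no detectable change of Ctla4. Gpr83, a G protein-coupled receptor known as a Treg marker, showed the same picture with means of 6.11 ± 0.33 in Treg, 3.18 ± 0.14 in stimulated and 3.19 ± 0.48 in unstimulated cells (SD, n = 4 each). Nrp1, the semaphorin coreceptor of thymus-derived Treg, had -0.37, -0.3, -0.21 and 0.35 in Treg, against -3.43, -2.87, -3.56 and -2.39 in stimulated cells (2.93 ± 0.33, adjusted p = 7.49e-08). Il10, an anti-inflammatory cytokine gene, had -2.02, -1.92, -1.73 and -0.99 in Treg, against -5.4, -4.54, -5.54 and -5.5 in stimulated cells, where only 1 array was above background (adjusted p = 1.04e-10). Izumo1r, the folate receptor FR4 of Treg, rose by only 1.02 ± 0.42 (adjusted p = 0.0336), and that call was lost without Treg replicate 1, 3 or 4 or stimulated replicate 1 or 4 (differences 0.78 to 1.04).

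**Figure D2:**
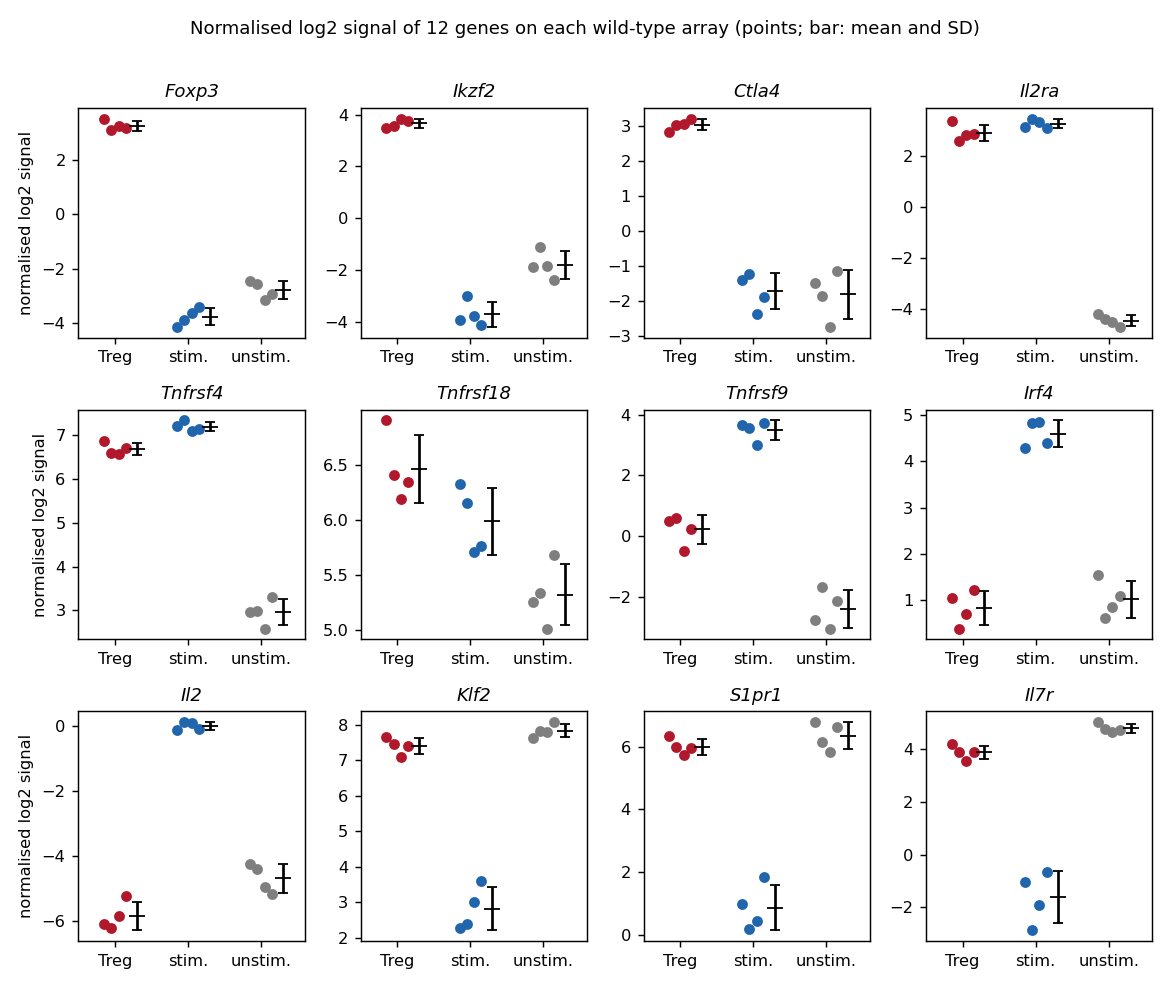
Normalised log2 signal of 12 genes on each wild-type array (points), with the mean and SD of each group of 4 (black), for Treg, TCR-stimulated and unstimulated naive cells from left to right. The top row runs from genes high in Treg alone (Foxp3, Ikzf2, Ctla4) to Il2ra, which is high in Treg and stimulated cells. Tnfrsf9, Irf4 and Il2 are highest in stimulated cells, while Klf2, S1pr1 and Il7r are low in stimulated cells alone.

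A list of 30 Treg signature genes, chosen with earlier results of these data known, was followed as a group, of which 28 were tested. Of these, 24 were higher in Treg than in stimulated cells (35.8% of all genes were) and 4 were lower, with a median difference of 2.93, against 0.05 over all genes. The median was 1.79 to 3.55 over the other normalisations, probe filters and probe summaries tried. Within the 2 slides it was 2.61 and 3.22. Against unstimulated cells, where 48.4% of all genes were called in Treg (18.9% higher and 29.4% lower), 28 of the 28 tested were higher in Treg. In stimulated cells, whose comparison shares those unstimulated arrays and called 61.9% of all genes (31.7% higher and 30.2% lower), 11 were higher and 8 lower. The share of called genes above unstimulated cells, 39.1% in Treg and 51.2% in stimulated cells, became 69.4% and 37.9% with scaling on the brightest shared probes and 54.2% and 57.1% with normexp. The 4 members lower in Treg were Tnfrsf9, Capg, Tnfrsf4 and Il2ra, and all of them had higher signals in Treg than in unstimulated cells as well. Capg, an actin-capping protein gene, averaged 4.92 ± 0.23 in Treg, 6.13 ± 0.2 in stimulated and 3.24 ± 0.49 in unstimulated cells (SD, n = 4 each), and its call was lost with quantile normalisation and with the authors' values (-0.34 in both).

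Il2ra did not separate Treg from activated cells. Its signals were 3.37, 2.59, 2.84 and 2.86 in Treg, against 3.15, 3.48, 3.36 and 3.13 in stimulated and -4.18, -4.37, -4.5 and -4.7 in unstimulated cells. Treg and stimulated values overlapped, and both groups lay far above the unstimulated one, by 7.35 in Treg (adjusted p = 5.62e-18) and by 7.72 in stimulated cells (adjusted p = 2.1e-18). Treg minus stimulated was -0.37 ± 0.16 (adjusted p = 0.046), just inside the threshold, with -0.11 and -0.29 within the slides. The 4 Il2ra probes gave -0.37 to 0.92. The sign turned with quantile normalisation (0.19), the authors' normalised values (0.19), scaling on the brightest shared probes (0.26) and the mean of probes (0.14), and the call was lost without Treg replicate 2, 3 or 4 or stimulated replicate 2 or 3 (-0.35 to -0.26). Whether Il2ra was higher in either population was therefore not settled by these arrays.

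A pair of costimulatory receptors of the TNF family also differed little between Treg and stimulated cells. Tnfrsf4, encoding OX40, had 6.87, 6.6, 6.57 and 6.71 in Treg, against 7.21, 7.35, 7.1 and 7.15 in stimulated and 2.97, 3.0, 2.58 and 3.31 in unstimulated cells. It stood 3.72 above unstimulated cells in Treg and 4.23 above them in stimulated cells. Treg minus stimulated was -0.51 ± 0.18 (adjusted p = 0.0142), and here, unlike for Il2ra, the groups did not overlap. That sign turned with quantile normalisation, the authors' values and scaling on the brightest probes. Tnfrsf18, encoding GITR, had 6.9, 6.41, 6.19 and 6.34 in Treg, against 6.32, 6.15, 5.7 and 5.76 in stimulated and 5.25, 5.33, 5.01 and 5.68 in unstimulated cells. Tnfrsf18 was already bright in unstimulated cells and stood only 1.14 above them in Treg and 0.67 in stimulated cells. Treg minus stimulated was 0.48 ± 0.21 (adjusted p = 0.0451) with overlapping groups, turned with normexp (-0.25), and missed the threshold without Treg replicate 1, 2 or 4 or stimulated replicate 3 or 4 (0.33 to 0.52). Icos, a CD28 family receptor, was 0.68 ± 0.21 higher in Treg (adjusted p = 0.00612) except with normexp, where it was -0.01. It was 0.76 above unstimulated cells in Treg (adjusted p = 0.00577), while stimulated minus unstimulated was 0.08 and not called (adjusted p = 0.764). Cd44, an adhesion receptor (-0.43, adjusted p = 0.109, with 3 probes between -0.43 and 1.4), and the early activation antigen Cd69 (0.18, adjusted p = 0.305) were not called, although 3 alternatives called Cd69 higher in Treg (0.80 to 0.86) and normexp called Cd44 lower (-0.96). Against unstimulated cells, Cd69 was lower in both populations, at -0.59 in Treg and -0.76 in stimulated cells (adjusted p = 0.00415 and 0.00018). Cd44 was higher in both, by 0.64 in Treg and 1.07 in stimulated cells.

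The third TNF receptor of this kind differed more between Treg and stimulated cells. Tnfrsf9, encoding 4-1BB, had 0.51, 0.6, -0.47 and 0.25 in Treg, against 3.65, 3.56, 3.01 and 3.74 in stimulated and -2.76, -1.66, -3.04 and -2.12 in unstimulated cells, in 3 separate ranges. Treg were 9.61-fold below stimulated cells (-3.26 ± 0.26, adjusted p = 4.44e-10) and 2.62 (log2) above unstimulated ones. Of the 21 activation surface genes tested, 12 were lower in Treg and 4 higher (36.8% and 35.8% of all genes), with a median of -0.67 that shrank to -0.043 with scaling on the brightest shared probes. Tnfsf14, encoding LIGHT, fell by 3.11 and Cd200, whose protein signals to myeloid cells, by 2.36 (adjusted p = 1.11e-10 and 2.34e-10). Tnfrsf25, the receptor DR3, was 2.09 higher in Treg.

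Coinhibitory receptors split. Of 12 tested, 7 were lower and 5 higher in Treg (36.8% and 35.8% of all genes were). The median of -0.51 reached 0.12 with scaling on the brightest shared probes. Pdcd1, encoding PD-1, had 2.21, 1.88, 1.97 and 1.96 in Treg, against 5.49, 5.25, 5.43 and 5.26 in stimulated and -0.035, 0.69, -0.1 and 0.16 in unstimulated cells, so Treg were 10.2-fold below stimulated cells (adjusted p = 2.74e-13) and still 1.82 (log2) above unstimulated ones. Lag3, a receptor for MHC class II, and Pdcd1lg2, the PD-1 ligand PD-L2, kept the same order of groups, with Treg minus stimulated at -2.52 ± 0.33 and -2.97 ± 0.24. Ctla4 and Cd96 were higher in Treg, Cd96 by 2.16 ± 0.17.

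Il2 was detected in stimulated cells and not in Treg. It had signals of -6.11, -6.23, -5.84 and -5.24 in Treg, where no array was above background, against -0.13, 0.12, 0.08 and -0.1 in stimulated cells and -4.25, -4.4, -4.97 and -5.17 in unstimulated cells. It was at least 20.3-fold lower in Treg (adjusted p = 1.82e-12). Several other genes of the IL-2 pathway were higher in Treg. Il2rb, the beta chain shared with the IL-15 receptor, had 6.43, 6.36, 6.25 and 6.45 in Treg, against 3.49, 3.36, 3.84 and 3.84 in stimulated and 1.88, 2.4, 1.66 and 3.04 in unstimulated cells, and was 6.69-fold higher in Treg than after stimulation (adjusted p = 6.82e-09). Socs2, a STAT5-induced inhibitor of cytokine signalling, was 3.51 ± 0.29 higher and Socs3, an inhibitor of STAT3 signalling, 4.97 ± 0.29. Treg minus stimulated for Il2rg, the common gamma chain, was -1.24 ± 0.32 (adjusted p = 0.00173), and this call was lost with scaling on the brightest probes. Pim2, a STAT5-responsive kinase gene, fell by 2.62 (adjusted p = 3.16e-12). In all, 14 of the 20 tested genes of the IL-2 receptor and STAT5 list were higher and 4 lower, with a median of 1.42 (0.79 to 2.04 over the alternatives).

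Effector cytokines showed no common direction. Of 20 tested, 9 were lower and 6 higher in Treg, near the shares of all genes (36.8% and 35.8%). Their median of -0.09 changed sign between alternatives (-0.52 to 0.54). Beside Il2 and Xcl1, the chemokines Ccl4 and Ccl3 fell by 4.94 ± 0.48 and 4.00 ± 0.43 (adjusted p = 9.72e-09 and 3.87e-08). Ifng, encoding interferon gamma, had 0.46, 0.16, 0.29 and 1.11 in Treg, against 0.06, 0.87, -0.4 and -0.47 in stimulated cells, with overlapping groups and no call (adjusted p = 0.278). Areg, Ebi3 (a subunit of interleukins 27 and 35) and Csf1 (macrophage colony-stimulating factor) were higher in Treg, Ebi3 by 2.57 ± 0.41 and Csf1 by 2.24 ± 0.19.

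Transcription factors induced by the TCR fell into opposite sets. Irf4, which scales with TCR signal strength, had 1.04, 0.38, 0.7 and 1.21 in Treg, against 4.29, 4.84, 4.86 and 4.41 in stimulated and 1.54, 0.6, 0.85 and 1.09 in unstimulated cells, and was 13.6-fold lower in Treg than in stimulated cells (-3.77 ± 0.21, adjusted p = 2.76e-12). Myc, the driver of T cell growth, had 3.59, 3.41, 3.58 and 3.55 in Treg, against 4.72, 5.22, 5.39 and 5.32 in stimulated cells, 3.1-fold lower in Treg (adjusted p = 4.16e-09). Egr2 and Egr3, zinc-finger factors downstream of NFAT, fell by 2.84 ± 0.13 and 2.27 ± 0.24. The immediate early AP-1 genes Fos, Jun and Fosb were higher in Treg. Fos had 3.36, 3.42, 3.71 and 4.05 in Treg, against -2.21, -1.71, -1.91 and -1.86 in stimulated and 2.98, 4.15, 4.47 and 4.48 in unstimulated cells, so Treg and unstimulated values overlapped while stimulated cells were 47.1-fold below Treg (adjusted p = 1.78e-12). Jun and Fosb were 5.65 ± 0.24 and 5.31 ± 0.51 higher in Treg. Over the 22 early response and AP-1 genes tested, 12 were higher and 7 lower in Treg, with a median of 0.88 (0.37 to 1.5).

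Genes for building ribosomes were lower in Treg without exception among those tested. All 34 ribosome biogenesis genes tested were lower in Treg (36.8% of all genes were), with a median of -2.68, which stayed between -2.84 and -2.05 over the alternatives and was -2.44 and -2.74 within the 2 slides. Against unstimulated cells, 34 of 34 were higher in stimulated cells (median 2.21), while in Treg, set against the same arrays, 0 were higher and 20 lower (median -0.56). Nhp2, a protein of the box H/ACA particles that guide pseudouridylation, had 2.48, 1.95, 1.84 and 1.55 in Treg, against 5.87, 6.08, 6.48 and 5.95 in stimulated and 2.98, 3.2, 3.26 and 2.76 in unstimulated cells (17.6-fold lower in Treg than after stimulation, adjusted p = 7.04e-13). Gar1, its partner, fell by 3.69 ± 0.27 and Nop16, a factor of the large subunit, by 3.75 ± 0.23. All 34 genes had fully separated Treg and stimulated arrays, against 64.8% of all genes.

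The promoters of this group were searched for CACGTG, the canonical E-box bound by MYC and related factors, which reads the same on both strands. Of the 34 tested genes, 29 had a RefSeq promoter window and 7 of these (24.1%) held CACGTG, against 10.1% of the windows of all genes tested and 7.24% of all windows. The 2 with the largest differences, chosen after their values were seen, are shown with the match in capitals, both from GRCm38.p6: Nop2, an rRNA methyltransferase gene, at chr6:125131633-125131932 (plus strand), and Tsr1, a small-subunit assembly factor gene, at chr11:74897830-74898129 (plus strand).
Nop2: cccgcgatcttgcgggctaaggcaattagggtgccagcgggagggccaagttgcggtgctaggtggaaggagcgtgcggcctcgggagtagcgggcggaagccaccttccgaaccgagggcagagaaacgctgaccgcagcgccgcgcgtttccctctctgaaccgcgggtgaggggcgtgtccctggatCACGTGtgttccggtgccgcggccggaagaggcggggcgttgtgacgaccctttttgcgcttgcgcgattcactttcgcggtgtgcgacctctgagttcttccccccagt
Tsr1: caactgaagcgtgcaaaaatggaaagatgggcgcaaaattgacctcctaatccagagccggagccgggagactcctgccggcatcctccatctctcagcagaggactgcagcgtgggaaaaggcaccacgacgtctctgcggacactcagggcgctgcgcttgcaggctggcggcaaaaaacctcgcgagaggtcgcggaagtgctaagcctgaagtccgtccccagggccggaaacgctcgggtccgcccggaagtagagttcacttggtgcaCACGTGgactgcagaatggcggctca
Nop2 averaged 3.59 ± 0.17 in Treg and 6.67 ± 0.012 in stimulated cells, and Tsr1 0.24 ± 0.32 in Treg and 2.89 ± 0.22 in stimulated cells (SD, n = 4 each). A match of letters shows no binding.

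Other arms of biosynthesis followed the same direction. All 20 cytosolic tRNA synthetases tested were lower in Treg (median -1.92, -2.11 to -1.27 over the alternatives), led by Mars1, Iars and Kars with -2.99 ± 0.2, -2.72 ± 0.14 and -2.71 ± 0.19, although another of the 3 Iars probes gave 0.62. Of 22 chaperones, 20 were lower and 1 higher (median -2.10). Hspd1, the mitochondrial chaperonin HSP60, had 4.55, 4.32, 4.33 and 4.92 in Treg, against 7.9, 8.01, 7.97 and 7.85 in stimulated cells (10.6-fold lower in Treg, adjusted p = 8.78e-12). Of 24 genes for the ATF4 response, serine synthesis and amino acid transport, 20 were lower and 2 higher (median -1.79), with Shmt1, a one-carbon enzyme, and Srm, the spermidine synthase, at -4.44 ± 0.2 and -4.20 ± 0.17. Asns, asparagine synthetase, fell by 3.82 ± 0.3. These medians kept their sign under every normalisation, probe filter and probe summary tried.

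Most genes of energy metabolism and lipid synthesis were lower in Treg. Of 20 glycolysis genes, 14 were lower and 3 higher in Treg (median -0.94). Hk2, the inducible hexokinase, had -0.92, -1.26, -1.57 and -1.37 in Treg, against 2.12, 2.61, 2.68 and 2.55 in stimulated and -3.54, -2.76, -3.65 and -3.42 in unstimulated cells, 13.6-fold lower in Treg than after stimulation (adjusted p = 1.42e-12). The glucose transporter gene Slc2a3 went the other way, 1.91 ± 0.11 higher in Treg. For fatty acid oxidation and respiration 16 of 21 were lower and 1 higher (median -1.17), the exception being Cpt1a, the gate of fatty acid import into mitochondria, with 1.82, 1.62, 1.2 and 1.15 in Treg, against -0.86, -0.39, -0.66 and -0.62 in stimulated cells (2.08 ± 0.21, adjusted p = 1.37e-08). Of 26 sterol and fatty acid synthesis genes, 18 were lower and 3 higher (median -1.37), led by Idi1, Fdps and Lss of the mevalonate and sterol pathway at -3.62, -2.80 and -2.78. The 3 medians reached -0.31, -0.53 and -0.75 in the alternative nearest to 0.

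Most replication genes were lower in Treg, whereas mitosis genes showed no common direction. Of 35 tested genes of DNA replication and the G1/S step, 30 were lower and 3 higher in Treg (median -2.18, -2.19 to -1.55), and Mcm5, a subunit of the replicative helicase, had 2.26, 2.38, 1.9 and 1.94 in Treg, against 5.28, 5.44, 5.48 and 5.4 in stimulated cells (9.72-fold lower in Treg, adjusted p = 1.88e-14). Gins1 and Gins2, partners of that helicase, fell by 3.63 and 3.88. E2f2 was 3.07 ± 0.32 higher in Treg. Of 22 mitosis genes, 6 were higher, 5 lower and 11 not called, with a median of -0.03 that changed sign between alternatives. Mki67, a proliferation marker, had 1.47, 2.43, 1.57 and 1.5 in Treg, against -0.79, -0.05, -0.78 and -0.59 in stimulated and -0.00066, 1.3, -0.037 and 0.4 in unstimulated cells, and was 4.9-fold higher in Treg than in stimulated cells (adjusted p = 1.39e-05). Ccnb2 and Nusap1, of mitotic entry and the spindle, were also higher in Treg, by 2.42 and 1.93 (the call for Nusap1 was lost with the signal floor, at 0.69), while Cdc20 and Aurka fell by 1.40 and 1.28.

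**Figure D3:**
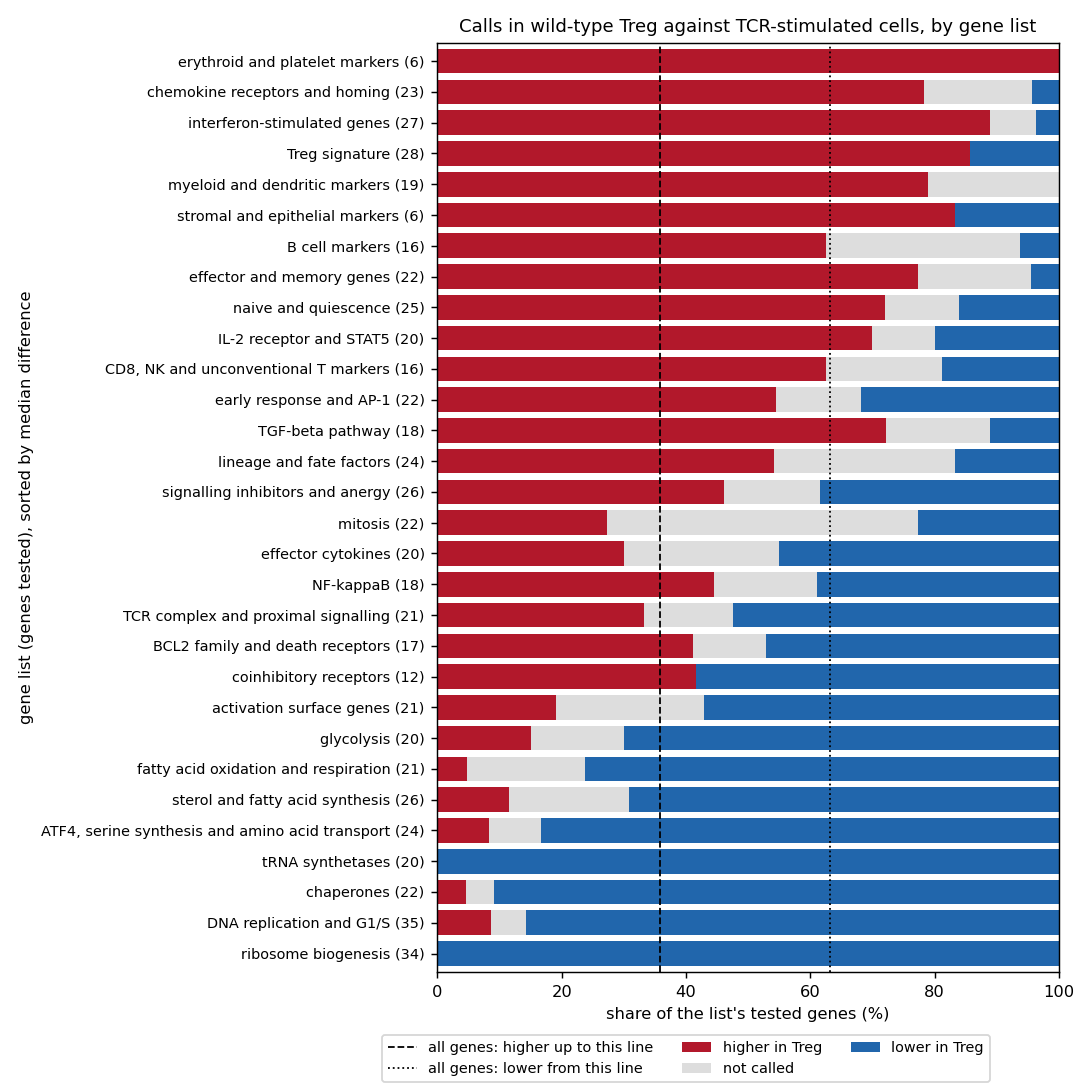
Share of each list's tested genes (number in brackets) called higher in wild-type Treg than in TCR-stimulated cells (red), not called (grey) and called lower (blue), with lists sorted by median difference from the highest at the top. The dashed line marks the 35.8% of all genes called higher and the dotted line the start of the 36.8% called lower. All tested ribosome biogenesis and tRNA synthetase genes were lower, and 24 of 28 Treg signature genes were higher.

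Genes of resting T cells were mostly lower in stimulated cells than in Treg. Of 25 tested naive and quiescence genes, 18 were higher in Treg and 4 lower (median 1.60, 0.93 to 2.41). Against the shared unstimulated arrays, 12 were lower and 0 higher in Treg, and 21 were lower and 3 higher in stimulated cells. Klf2, a factor that maintains quiescence and circulation, had 7.66, 7.44, 7.1 and 7.39 in Treg, against 2.27, 2.4, 3.0 and 3.59 in stimulated and 7.62, 7.82, 7.78 and 8.07 in unstimulated cells (23.9-fold higher in Treg than after stimulation, adjusted p = 3.83e-12). A second Klf2 probe gave -0.63, so the direction and the size rest on 1 probe. S1pr1, the receptor by which T cells leave lymph nodes, had 6.35, 5.98, 5.74 and 5.95 in Treg, against 0.99, 0.19, 0.45 and 1.84 in stimulated cells (adjusted p = 2.93e-12). Il7r, the IL-7 receptor alpha chain, had 4.19, 3.9, 3.57 and 3.9 in Treg, against -1.03, -2.88, -1.92 and -0.66 in stimulated and 5.05, 4.78, 4.67 and 4.73 in unstimulated cells, so Treg were 45.7-fold above stimulated cells and Treg minus unstimulated was -0.92 (log2, adjusted p = 0.017). Tsc22d3, encoding GILZ, was 5.69 ± 0.19 higher in Treg (adjusted p = 3.88e-15).

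Differences were smaller, or ran the other way, for some other genes of the naive state. Tcf7 and Lef1, factors of naive and memory T cells, differed by 0.57 and 0.25 between Treg and stimulated cells (adjusted p = 0.0391 and 0.262), and both groups lay below unstimulated cells, the difference for Lef1 being -1.75 in Treg and -2.0 in stimulated cells. Lef1 was called higher in Treg under 4 alternatives (0.87 to 1.10), and its probes ran from 0.24 to 2.82. The Tcf7 call was lost without any of 5 single arrays (0.45 to 0.59) and its sign turned with normexp. Ccr7, the lymph node homing receptor, differed by 0.034 (adjusted p = 0.901), although 3 alternatives called it higher in Treg (0.66 to 0.80). Bach2, a repressor of effector genes, and Slfn2, a quiescence gene, fell by 1.70 ± 0.11 and 2.15 ± 0.17.

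Homing receptors and genes of effector and memory T cells were mostly higher in Treg than in stimulated cells. Of 23 chemokine receptors and homing molecules tested, 18 were higher and 1 lower, with a median of 3.43 (1.51 to 4.05 over the alternatives), or 2.75 with genes undetected in 1 group set to their lower bound. Against the shared unstimulated arrays, 10 were higher and 1 lower in Treg (median 0.56), and 3 were higher and 16 lower in stimulated cells (median -1.54). Cxcr4, the receptor for CXCL12, had 3.18, 2.92, 2.72 and 3.31 in Treg, against -2.79, -4.2, -4.47 and -3.46 in stimulated and 3.19, 3.19, 3.27 and 3.6 in unstimulated cells (109-fold higher in Treg than after stimulation, adjusted p = 1.63e-14). Ccr6, a receptor of effector Treg and T helper 17 cells, had 2.38, 2.76, 2.36 and 2.45 in Treg, against -1.9, -1.08, -2.38 and -2.12 in stimulated cells, and also exceeded unstimulated cells (2.99, adjusted p = 4.84e-06). Of 22 effector and memory genes, 17 were higher and 1 lower (median 1.74, 1.13 to 2.37 over the alternatives, or 1.47 with bounds), among them S100a4, a calcium-binding protein gene, Vim, an intermediate filament gene, and Ahnak with 6.72 ± 0.48, 5.52 ± 0.26 and 5.48 ± 0.22. Against the shared unstimulated arrays, 5 effector and memory genes were higher and 5 lower in Treg (median 0.29), and 1 was higher and 17 lower in stimulated cells (median -2.42). Vim was not called between Treg and unstimulated cells (0.24, adjusted p = 0.453). Ahnak, a large scaffold protein gene, averaged 5.05 in Treg, -0.42 in stimulated and 1.97 in unstimulated cells. S100a4 and Vim are also expressed by myeloid cells, whose markers moved in the same direction as given above (15 of 19 higher).

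Interferon-stimulated genes were low in stimulated cells. Of 27 tested, 24 were higher in Treg and 1, Bst2, lower, with a median of 3.06, or 2.45 with bounds (1.52 to 3.69 over the alternatives). Against the shared unstimulated arrays, 2 were higher and 7 lower in Treg, and 0 higher and 24 lower in stimulated cells. Oas1a, an oligoadenylate synthetase gene, had 2.33, 1.59, 2.12 and 1.62 in Treg, against -3.98, -2.83, -3.78 and -3.37 in stimulated and 1.95, 1.91, 2.14 and 1.1 in unstimulated cells (42.4-fold higher in Treg than after stimulation, adjusted p = 3.3e-13). Ddx58, encoding the RNA sensor RIG-I, had 3.6, 3.4, 3.53 and 3.17 in Treg, against -1.44, -1.77, -2.22 and -0.86 in stimulated cells, and its 4 probes gave 3.93 to 5.76. Rtp4, an inhibitor of viral replication, was 4.56 ± 0.38 higher in Treg. Bst2, the antiviral tether gene, stood at -0.57 ± 0.16 (adjusted p = 0.00326), a sign that turned with quantile normalisation, the authors' values and scaling on the brightest probes. Myeloid markers, as given above, were also higher in Treg than in stimulated cells.

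These promoters were searched on either strand for the interferon-stimulated response element bound by STAT and IRF factors, read as GAAA, any 2 bases and GAAA. This motif was chosen after the values were seen. It was in 13 of 21 windows of the list (61.9%), against 3.06% of the windows of all genes tested and 3.49% of all windows. As the list holds interferon-stimulated genes, a high share follows from the list and is no result of these arrays. Of the windows of all genes called higher in Treg, 4.23% held the motif. Oas1a at chr5:120907476-120907775 (minus strand) and Ddx58 at chr4:40239776-40240075 (minus strand), again on GRCm38.p6, are shown as the 2 with the largest differences among those with a match, which is in capitals. In Oas1a 2 matches overlap.
Oas1a: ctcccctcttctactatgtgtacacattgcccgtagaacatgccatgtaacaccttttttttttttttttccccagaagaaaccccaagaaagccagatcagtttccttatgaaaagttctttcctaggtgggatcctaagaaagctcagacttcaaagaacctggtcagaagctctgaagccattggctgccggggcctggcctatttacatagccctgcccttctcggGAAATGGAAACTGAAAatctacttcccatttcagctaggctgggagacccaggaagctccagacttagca
Ddx58: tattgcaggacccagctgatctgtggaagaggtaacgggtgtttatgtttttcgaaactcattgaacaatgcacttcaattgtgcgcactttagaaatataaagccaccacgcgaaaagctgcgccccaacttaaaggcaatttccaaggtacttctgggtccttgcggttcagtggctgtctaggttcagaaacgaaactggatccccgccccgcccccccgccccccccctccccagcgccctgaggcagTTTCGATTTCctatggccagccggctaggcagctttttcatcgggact
A match of letters does not show which factor acted in these cells.

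**Figure D4:**
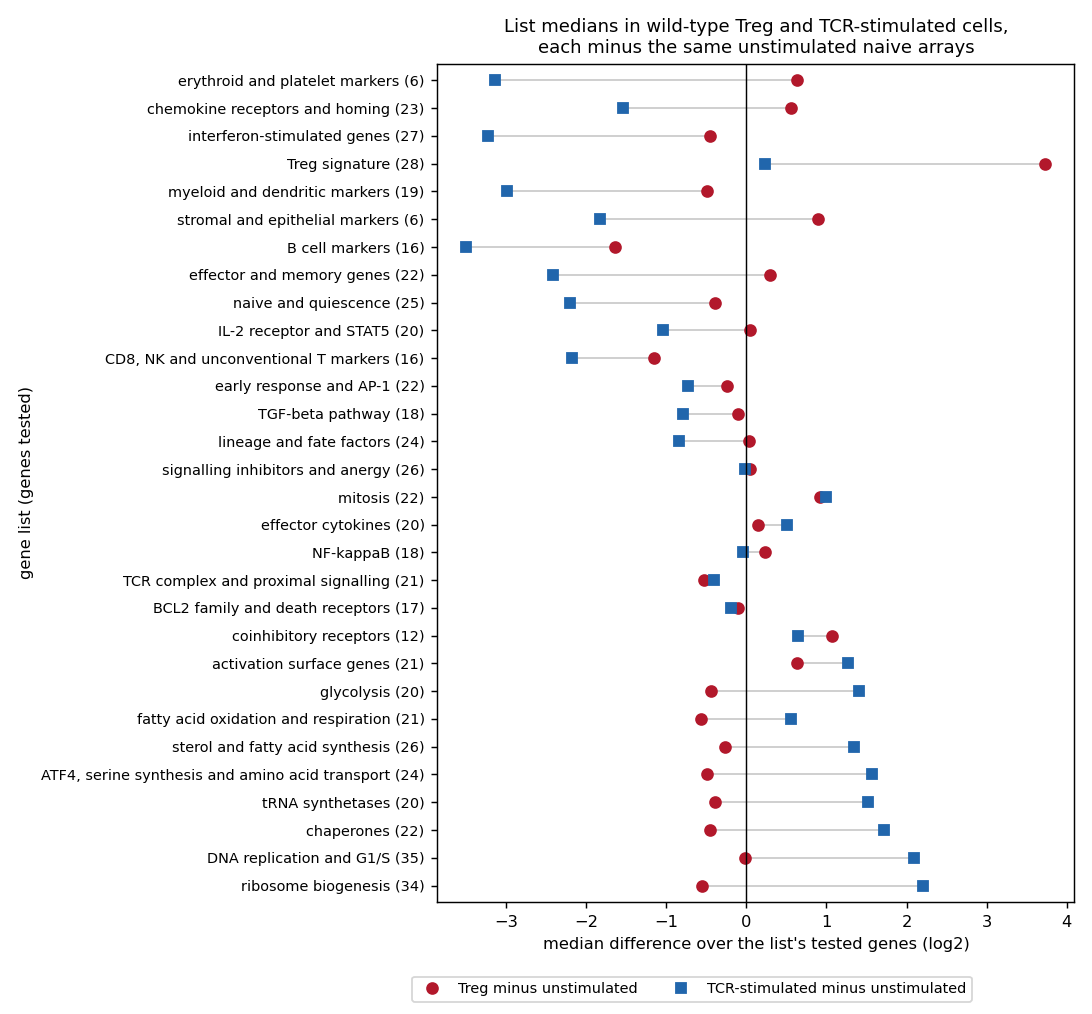
Median difference from unstimulated naive cells over the tested genes of each list (number in brackets), in log2, for wild-type Treg (red circles) and TCR-stimulated cells (blue squares), in the order of the Treg against stimulated medians. Both differences use the same 4 unstimulated arrays. The Treg signature stands at 3.73 in Treg and 0.23 in stimulated cells, ribosome biogenesis at -0.56 in Treg and 2.21 in stimulated cells, and interferon-stimulated genes at -0.46 in Treg and -3.23 in stimulated cells.

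Signalling and fate genes showed mixed changes. Of 21 tested TCR complex and proximal signalling genes, 11 were lower and 7 higher in Treg, with a median of -0.23 that ranged from -0.78 to 0.4. Zap70, the kinase that docks on the TCR, had 4.46, 3.82, 4.09 and 3.91 in Treg, against 6.01, 6.36, 6.4 and 6.04 in stimulated cells (4.38-fold lower in Treg, adjusted p = 4.54e-11). Plcg1 and Rasgrp1, which link the TCR to calcium and Ras, were 1.65 and 1.55 higher. Of 26 signalling inhibitors and anergy genes, 12 were higher and 10 lower, with Dusp1, a MAP kinase phosphatase gene, at 4.95 ± 0.18 and Spry1, a Ras pathway inhibitor gene, at -3.38 ± 0.19. Of 18 NF-kappaB genes, 8 were higher and 7 lower, against 35.8% and 36.8% of all genes. The inhibitor genes Tnfaip3 and Nfkbiz rose by 4.94 and 3.22 in Treg, while the subunit genes Nfkb1 and Nfkb2 fell by 1.61 and 1.79, Nfkb1 with a sign that turned to 0.31 in the mean of its probes. The medians of the inhibitor and NF-kappaB lists changed sign between alternatives.

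Among 24 lineage and fate factors, 13 were higher in Treg and 4 lower (median 0.55, 0.24 to 1.17). Gata3, a factor of T helper 2 cells that tissue Treg also use, had 3.64, 3.33, 3.39 and 3.68 in Treg, against -0.43, 0.09, -0.36 and -0.11 in stimulated cells (13.1-fold higher in Treg, adjusted p = 2.75e-14). Rora and the aryl hydrocarbon receptor gene Ahr were 3.3 and 3.64 higher. Of 18 TGF-beta pathway genes, 13 were higher and 2 lower (median 0.84), including the inhibitory SMAD gene Smad7 at 2.76 ± 0.15. Of 17 genes of the BCL2 family and death receptors, 7 were higher and 8 lower, against 35.8% and 36.8% of all genes. The survival genes themselves were split, with Bcl2 at 2.45 ± 0.17 and Bcl2l1, encoding BCL-XL, at -2.44 ± 0.18.

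The same comparison was made in Trim28 CKO cells, which shares no array with the wild-type one. Both came from the same fit, with the same estimate of the spread for each gene, and from the same slides. The CKO calls are therefore no independent repeat. There 11174 of 16489 genes were called (67.8%), 34.4% higher and 33.3% lower in Treg. Of the 11970 genes called in wild type, 96.8% had the same sign in CKO cells, and 81.0% were also called there with that sign. The CKO Treg samples carry a treatment label of TCR stimulation that goes against their titles and the study design, and they were grouped by title. Trim28 itself, the gene targeted in these mice, averaged 0.43 in CKO Treg, 0.97 in CKO stimulated, 2.0 in wild-type Treg and 3.66 in wild-type stimulated cells. Whether its probe lies in the deleted part is not given in the sources used here. In wild type alone it had 2.24, 1.81, 1.9 and 2.05 in Treg, against 3.4, 3.86, 3.76 and 3.6 in stimulated cells (3.15-fold lower in Treg, adjusted p = 1.86e-08).

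The size of the difference was tested between genotypes as an interaction, CKO minus wild type. It was called for 744 of 16489 genes (4.51%), 339 with a higher (2.06%) and 405 with a lower difference (2.46%) in CKO cells. This count moved to 57 with normexp and to 2155 with array weights, and to 482, 1223 and 491 without CKO stimulated replicate 2, CKO stimulated replicate 4 and wild-type Treg replicate 3. The share of higher calls, 45.6%, moved to 20.7% with scaling on the brightest shared probes, 75.4% with normexp and 61.3% with a signal floor. Foxp3 was 4.65 higher in CKO Treg than in CKO stimulated cells, against 7.01 in wild type, an interaction of -2.37 ± 0.28 (adjusted p = 4.81e-05), with a mean of 3.34 in CKO Treg, -1.31 in CKO stimulated, 3.26 in wild-type Treg and -3.76 in wild-type stimulated cells. Nrp1 gave 0.57 in CKO cells and 2.93 in wild type (interaction adjusted p = 0.00464), and Tnfrsf4 0.68 in CKO cells and -0.51 in wild type (adjusted p = 0.00833). For Il2ra the difference was -0.49 in CKO cells and -0.37 in wild type, with an interaction of -0.12 ± 0.23 that was not called (adjusted p = 0.774). Ctla4, Tnfrsf9, Irf4 and Myc were also not called for an interaction. Of the 28 Treg signature genes tested, 7 were, against 4.51% of all genes. So were 14 of 35 replication genes and 10 of 25 naive and quiescence genes, but 0 of 34 ribosome biogenesis genes. The lists were chosen with earlier results of these data known, and the wild-type arrays enter this test too. These shares can therefore not be compared with that of all genes.

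**Figure D5:**
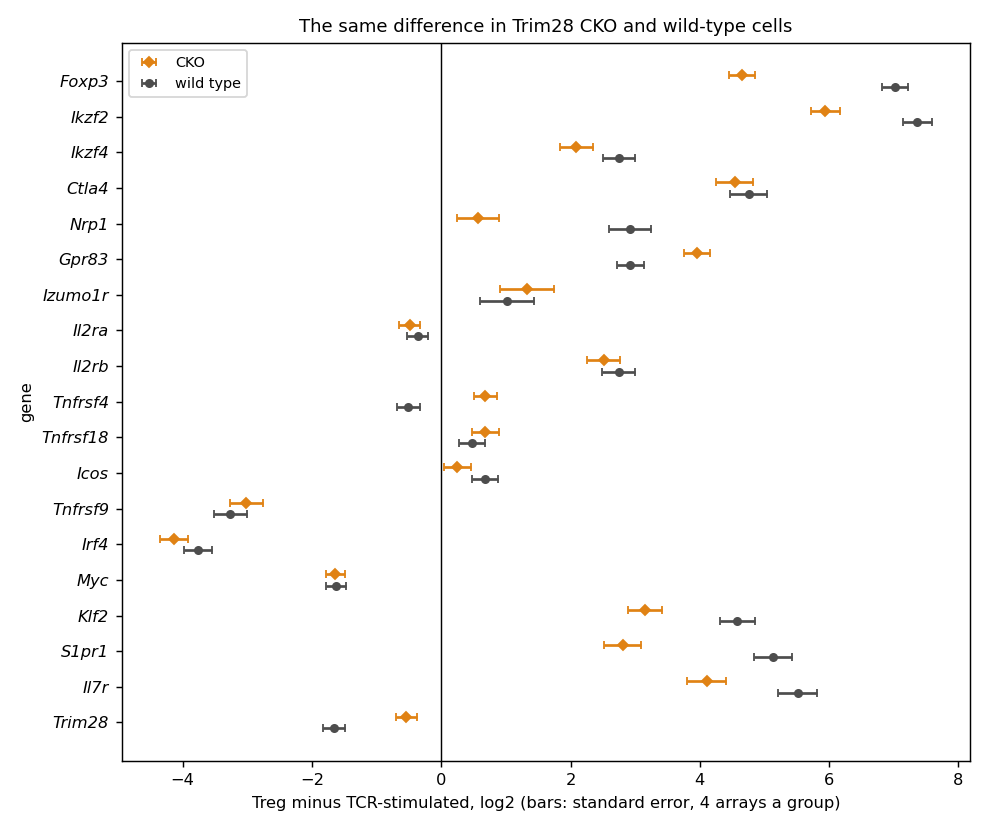
Treg minus TCR-stimulated difference (log2, with standard error bars, 4 arrays a group) for 19 fixed genes in Trim28 CKO cells (orange diamonds) and wild-type cells (grey circles). Foxp3 lies at 4.65 in CKO and 7.01 in wild-type cells, Nrp1 at 0.57 in CKO and 2.93 in wild-type cells, and Il2ra at -0.49 in CKO and -0.37 in wild-type cells.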

How the data were processed

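Total RNA of each of 24 samples, 4 in each of 6 groups, was hybridised to a 1-colour Agilent mouse array, and the 8 arrays of wild-type Treg and wild-type stimulated cells were compared. Per the file headers and the submitters' processing notes, Agilent Feature Extraction 9.5 made the deposited intensity values, of which the background-subtracted processed signal was used, not normalised between arrays. A normalised intensity table deposited by the authors, by a method not given in the sources used here, served as an alternative. Its columns share 1 distribution, with a median of 13.5 intensity units in each, it ranks probes as the scanner files do, and its centring is unknown. The genome build behind the probes is not given in the sources used here.

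Outlier spots were left out, log2 signals were scaled on each array's 75th percentile, and replicate spots were averaged. Probes were retained if well above background on 3 of the 4 arrays of any group, which left 25198 of 41174 probes and 16489 genes, each taken from its brightest probe. RefSeq names were matched by accession (22951 probes), current symbol (6659) or older symbol (3109), and 8455 probes kept the name in the file. limma 3.58.1 (R 4.3.3) fitted group means over all 24 arrays, and calls used Benjamini-Hochberg adjusted p under 0.05 over all genes. Undetected genes were given a bound against the dimmest signal well above background on each array. On simulated data with 200 changed genes, the fit for wild-type Treg against stimulated cells over 16489 genes recovered 13.4%, 64.2% and 89.4% of changes of 0.5, 1 and 2 (log2), with 5 false calls. Far fewer genes were changed there than were called in the data, noise was independent between genes, and shifts from normalisation were not simulated. These rates therefore need not hold for the real arrays. The number of arrays limits the precision.

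Genes named are a set of fixed genes, the 10 largest changes each way, up to 5 seen in 1 population only, and the 3 largest called members each way of 30 lists (647 genes, of whose 678 entries 631 were tested); 2 of the genes this names are not reported here. The members and lists were chosen with earlier results of these data known. Alternatives were other normalisations and background corrections, probe filters and summaries, a signal floor, array weights, fits with only the compared arrays, blocks for slide and replicate number, and leaving out each array. Same-numbered Treg and stimulated arrays deviated together with r of 0.08, 0.19, 0.30 and 0.28 across genes, the first too weak to count, so the numbers were not taken as pairs. Promoter motifs were searched with Python 3.11.15 in RefSeq windows.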

Additional observations from a re-analysis of the deposited data

Results flagged for a closer look

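The Treg against stimulated difference was tested for a difference between Trim28 CKO and wild-type cells, and 27 of 180 named genes passed (limma interaction, adjusted p under 0.05 over all genes). Of all genes tested, 4.51% passed, a count of 744 that moved to between 57 and 2155 under the alternatives. Many genes were named for large differences in wild type, whose arrays enter this test too, so the 2 shares cannot be compared. Values are CKO minus wild type on the log2 scale. Among Treg genes the value was -2.37 for Foxp3, -1.42 for Ikzf2, -2.35 for Nrp1, 1.03 for Gpr83 and 1.19 for Tnfrsf4. For genes of circulation and quiescence it was -1.43 for Klf2, -2.33 for S1pr1, -1.36 for Cxcr4, -1.52 for Cxcr6, -1.45 for Tsc22d3 and -1.82 for Ddit4. Trim28 itself gave 1.12. Genes with large differences in wild type gave -1.31 for P2rx7, -2.18 for Armc3, -1.97 for Wfdc2 and 3.76 for Spin4, the last 2 below background in 1 wild-type group. Genes of activation and signalling gave 2.43 for Ccl3, -1.38 for Jun, 1.23 for Cd200 and 1.35 for Bcl2a1b. Replication genes gave 1.14 for Gins1, 0.83 for Mcm5 and 1.64 for Tk1. The factors Gata3, Rora and the erythroid marker Gata1 gave -0.95, -1.19 and -1.14, and the RNA sensor gene Ddx58 gave -1.56.

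On single arrays, 13 of 360 sets of 4 values held 1 array far from the other 3 by Dixon's test, which chance alone flags in about 1 in 20 groups. Values are normalised log2 signals. In Treg, Cd4 read -0.76 in replicate 1, against -0.34 to -0.30 in the others, and Kars 1.97 in replicate 1, against 1.31 to 1.41. Mki67 read 2.43 in Treg replicate 2, against 1.47 to 1.57, and Ahnak 4.74 in Treg replicate 3, against 5.15 to 5.17. In stimulated replicate 1, Cd4 read -1.19 (others -0.84 to -0.81), Gata1 -5.87 (others -4.84 to -4.71), Egr3 -0.58 (others -0.07 to 0.03) and Nfkb1 3.35 (others 3.70 to 3.76). In stimulated replicate 2, Il10 read -4.54 (others -5.54 to -5.40), the MHC class II gene H2-Aa -1.75 (others -4.49 to -4.27) and Bcl2 2.09 (others 2.32 to 2.33). In stimulated replicate 4, Gins1 read 2.14 (others 2.29 to 2.31) and Cd200 3.71 (others 4.17 to 4.26).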

How the results depend on the processing

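The count of genes called between Treg and stimulated cells stayed within 1.5 times of 11970 under every alternative run, with 12313 under the replicate block and 11391 to 11963 when single arrays were left out. Treg against unstimulated cells gave 6379 to 8461 without single arrays and stimulated against unstimulated cells 9698 to 10049, but 6757 with normexp, where the main count was 10202. The CKO minus wild-type difference, 744 genes, moved to 57 with normexp, 380 with no filter on dim probes, 2155 with array weights, 1201 with slide as a random block and 1362 with the replicate block, and to 482 to 1223 without single arrays; the cause was not tested. Whether the numbers pair the samples is not settled, so the block is an alternative only. In wild type, replicate 1 was aged 6 weeks in Treg and 7 weeks in stimulated cells. Yet 3 of 4 Treg arrays correlated best with the stimulated array of their own number. Over single genes and alternatives, 3611 values were counted as unchanged, 105 lost the call, 12 gained it and 22 turned sign. A turn of sign in a gene that stayed uncalled was not counted, so uncalled genes may have changed direction. Signs turned with normexp for Tnfrsf18 (-0.25), Icos (-0.00567), Tcf7 (-0.13), Ccnd3 (-0.19), Insig1 (-0.0471), Bub1b (0.28) and Epcam (0.52), with quantile normalisation for Il2ra (0.19), Tnfrsf4 (0.32) and Bst2 (0.0384), and with the authors' values for Il2ra (0.19), Tnfrsf4 (0.31) and Bst2 (0.0381). They turned with scaling on the brightest shared probes for Il2ra (0.26), Tnfrsf4 (0.11), Bst2 (0.0558) and Cd3e (0.0212), and with the mean of probes for Il2ra (0.14), Cd3e (0.36), Nfkb1 (0.31), Pfkp (-0.16) and Cd8b1 (-0.0252). Calls were gained for Cd69 (0.80 to 0.86) and Lef1 (0.87 to 0.97) with quantile normalisation, the authors' values and the brightest shared probes, for Lef1 also with the mean of probes (1.10), for Ifng (1.12) with the brightest shared probes, and for Cd44 (-0.96) with normexp. Dim signal limits genes near background, of which 944 called ones had no array above it in 1 group.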
